A study of Bos taurus with 8 samples.

Results

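Cathelicidins are a family of antimicrobial peptides, and their bovine genes CATHL1 to CATHL6 were examined in the liver of Japanese Black fetal calves. The members were taken by gene: a probe belonged to the family when the accession the array gave for it was an accession of CATHL1, CATHL2, CATHL3, CATHL4, CATHL5 or CATHL6 in the RefSeq gene table. This gave 10 probes for 6 genes, out of 12603 genes with a matched probe, and all 6 were among the 10860 genes detected, a gene counting as detected when 4 or more of the 8 arrays measured it well above background. All 10 probes were well above background on all 8 arrays. The family was chosen because its members differed between low and high maternal nutrition and followed one another across the fetuses, so both are given here as descriptions, without a test.

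The dams were fed before and throughout gestation at 60% of their nutritional requirement (the LN, low nutrition, group) or at 120% of it (the HN, high nutrition, group). The fetal liver was collected at 8.5 months post-conception (day 260 ± 8.3 of gestation), and 4 livers of each group were hybridised, 1 liver to an array, on a 1-colour Agilent bovine expression array. According to the study's methods, the fetuses with the lowest body weight were taken from LN and those with the highest from HN, all conceived with sex-sorted semen of the same bull for male calves, so diet and fetal weight cannot be told apart. The series text mentions pooling of RNA within each group, whereas each array carries the label of 1 fetus (L5, L6, L8 and L9 in LN; L1, L2, L3 and L10 in HN), and the arrays were treated as 8 fetuses. Each diet had a slide of its own, so slide and diet cannot be told apart either. Between 32635 and 34369 of the 43803 spots of an array were well above background, 0 were saturated, and 11 of 12 hepatocyte markers had a probe and were detected, the LN mean of albumin (ALB) being 17.85 and the HN mean 17.84 in log2 signal. Quantile normalization, used here, draws the brightest probes to nearly the same values on every array. With 75th percentile scaling instead, ALB differed by 0.015.

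A cathelicidin is made as a precursor with a conserved cathelin region in front of a short peptide that differs widely between members. In cattle the precursors are stored in the granules of neutrophils, and neutrophil elastase cuts the peptide free when the granules are emptied; the peptides then damage bacterial membranes or act inside bacteria. The transcripts are made chiefly while neutrophils mature in blood-forming tissue, and the liver is such a tissue during fetal life. CATHL1 encodes bactenecin, a small ring-shaped peptide closed by a disulfide bond. CATHL2 and CATHL3 encode the proline- and arginine-rich peptides Bac5 and Bac7. CATHL4 encodes indolicidin, a very short peptide rich in tryptophan. CATHL5 and CATHL6 encode peptides of the BMAP type, which fold into an alpha helix at membranes, as does the peptide of their relative CAMP. In a bulk tissue, fewer cells of a type and less RNA per cell cannot be told apart, so every value below is a level in whole liver.

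The probe sequences of the array are not used here. The only designed sequences at hand for the family are the primers that the study used for CATHL4 by quantitative PCR, shown here because CATHL4 had the largest difference between the groups on the arrays. In that PCR the higher CATHL4 in LN was a trend, short of the study's threshold for significance. Both are 24 bases, written 5′ to 3′ in lower case throughout, with no part marked.
forward primer: ccatccaatgaccagtttgaccta
reverse primer: cccgaatctgaacaaatcagacac

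Signals are given as log2 of the processed spot intensity after quantile normalization, and a difference of 1 on this scale is a doubling. A gene is represented by its brightest detected probe. Levels of different probes cannot be set against each other, since each probe binds with its own strength, so only differences between fetuses are compared across members.

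CATHL4, the indolicidin gene, had log2 signals of 10.93, 11.66, 10.94 and 13.20 in the LN fetuses L5, L6, L8 and L9. In the HN fetuses L1, L2, L3 and L10 they were 9.41, 10.17, 10.78 and 9.25. The lowest LN fetus lay just above the highest HN fetus, and CATHL4 was the only member whose groups did not overlap. Over all detected genes, 2.59% were without overlap and higher in LN, and 1.56% without overlap and lower. The mean was 11.68 ± 1.07 (SD, n = 4) in LN and 9.90 ± 0.71 in HN, a difference of 1.78 (standard error 0.54) or 3.44-fold, which placed CATHL4 at rank 7 among the 10860 genes ordered by their excess in LN.

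CATHL1, the bactenecin gene, gave 11.40, 11.40, 10.34 and 12.82 in the LN fetuses, in the same order, against 9.04, 11.54, 10.39 and 9.91 in the HN fetuses. HN fetus L2 exceeded all LN fetuses but L9, and LN fetus L8 lay below HN fetus L3, so the groups overlapped widely. The difference was 1.27 (standard error 0.61), or 2.41-fold. A second CATHL1 probe differed by 1.34 and followed the first over the 8 arrays with a Pearson correlation of 0.996.

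The genes of the proline-rich peptides behaved like CATHL1. CATHL2 (Bac5) gave 10.37, 10.57, 10.03 and 12.08 in LN and 8.35, 10.62, 9.89 and 8.87 in HN, a difference of 1.33 (standard error 0.57). CATHL3 (Bac7) gave 9.87, 9.96, 9.43 and 11.53 in LN and 7.76, 9.92, 9.03 and 8.53 in HN, a difference of 1.39 (standard error 0.54). In both genes a single HN fetus, L2, reached into the LN range. Without it, CATHL2, CATHL3 and CATHL4 were without overlap, in a setting of 4 against 3 fetuses in which 4.68% of all genes were without overlap and higher in LN. The other 2 CATHL2 probes differed by 1.27 and 1.30 and correlated with the first at 0.991 each, although the dimmer of them had a mean LN signal of only 7.05.

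The helical-peptide genes CATHL6 and CATHL5 differed least among the members. CATHL6 gave 8.17, 8.53, 7.83 and 9.34 in LN and 7.01, 8.30, 7.92 and 7.52 in HN, a difference of 0.78 (standard error 0.36) or 1.72-fold. Its second probe differed by 0.88, with a correlation of 0.865 between the 2 probes, the lowest among probes of the same member. CATHL5 gave 8.84, 9.55, 8.17 and 9.64 in LN and 8.66, 9.37, 8.02 and 8.33 in HN. Its difference of 0.46 (standard error 0.38), or 1.37-fold, was within the spread of either group, whose SD was 0.69 in LN and 0.58 in HN. CATHL5 held rank 401 by excess in LN.

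**Figure D1:**
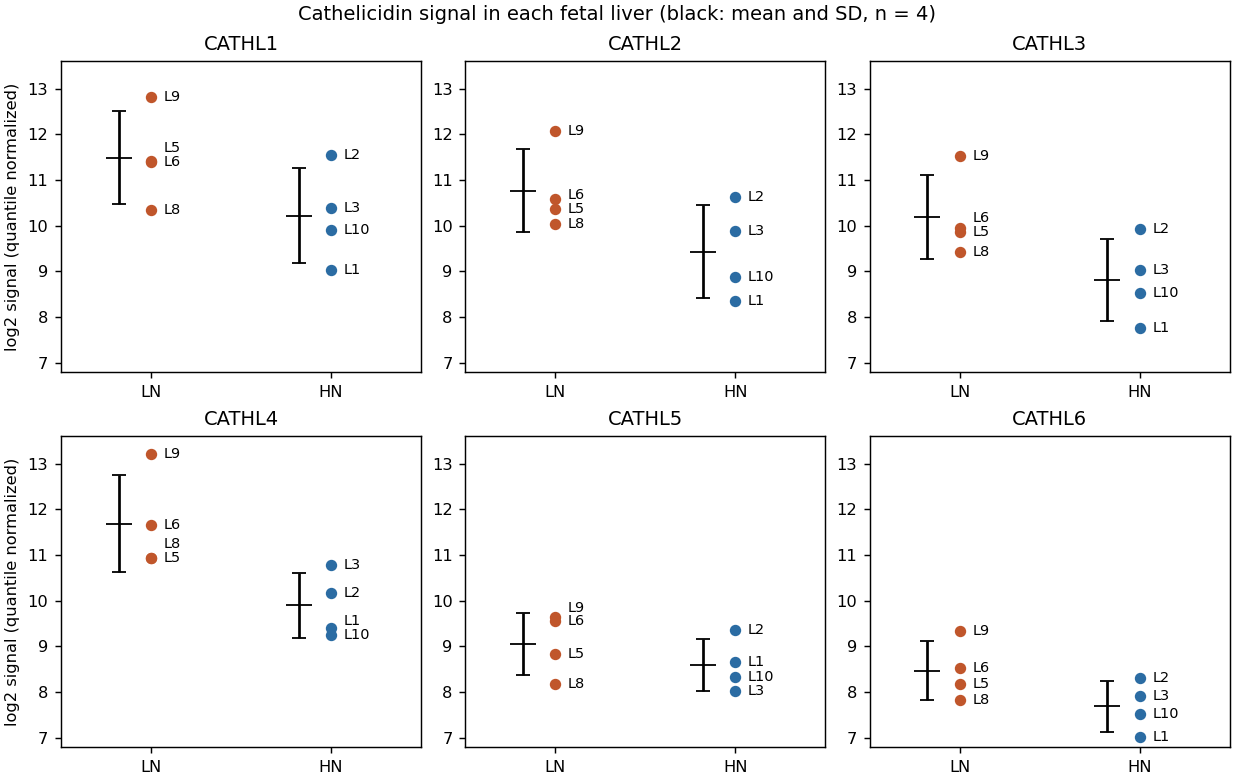
The log2 signal (vertical axis, quantile normalized) of each cathelicidin gene in the LN (orange) and HN (blue) fetuses, with the fetus named at each point and the mean and SD (n = 4) in black. LN fetus L9 is the highest point in all 6 panels, and only in CATHL4 do all LN points lie above all HN points.

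Over the family, the mean signal was higher in LN for 6 of 6 members, where 51.6% of all detected genes were higher. The median difference of the members was 1.30, or 2.47-fold, against a median of 0.0075 over all genes. The excess was more than 2-fold for 4 of 6 members, CATHL1 to CATHL4, where 0.617% of all genes exceeded 2-fold in that direction. These figures used the contrast that chose the family and describe it only. In the limma comparison of all 33439 detected probes, 2113 (6.32%) had an unadjusted p of at most 0.05 and 0 (0%) had an adjusted p of at most 0.05, the lowest being 0.634, so no probe of the array passed the correction.

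**Figure D2:**
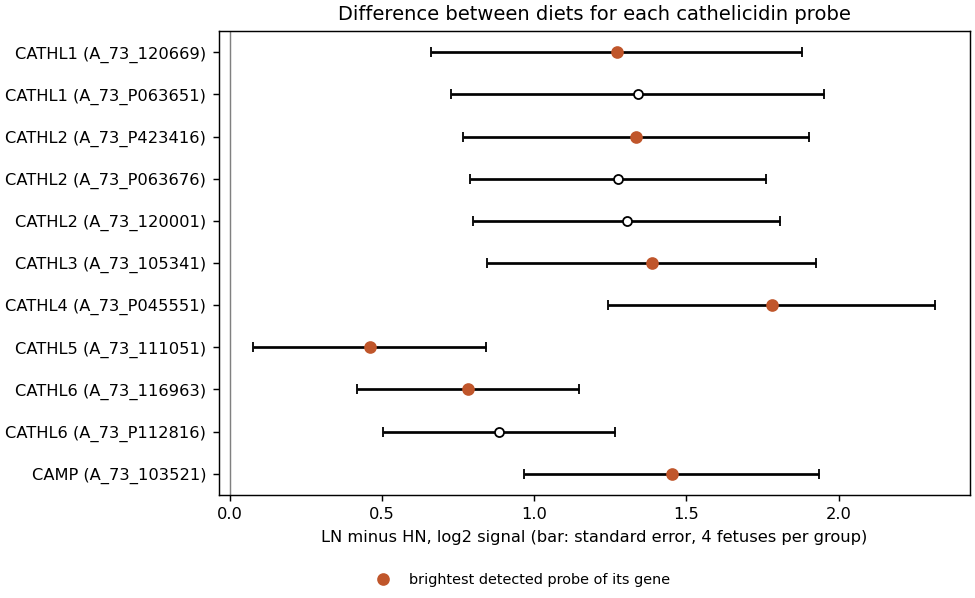
The difference LN minus HN (horizontal axis, log2 signal) with its standard error for each of the 10 cathelicidin probes and for the probe of CAMP, the brightest detected probe of each gene being filled. Probes of the same gene lie close together, CATHL4 is farthest from 0 at 1.78 and CATHL5 nearest at 0.46.

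The family varied widely among fetuses of the same group. The SD within groups, pooled over LN and HN, was 1.03 for CATHL1, 0.96 for CATHL2, 0.91 for CATHL3 and 0.91 for CATHL4, which placed these 4 members in the top 5% of all detected genes. It was 0.64 for CATHL5 and 0.60 for CATHL6, against a median of 0.23 over all genes. Over both groups together, CATHL4 spanned 3.95 on the log2 scale, or 15.4-fold, and CATHL5 1.62, or 3.08-fold. LN fetus L9 had the highest signal for all 10 probes. HN fetus L1 had the lowest for 7 of 10, HN fetus L3 for 2 and HN fetus L10 for 1. Averaged over the members, after each gene's mean was taken out, L9 stood at 1.74 and L1 at -1.32 from the mean of all fetuses on the log2 scale. The other LN fetuses stood at 0.24 (L5), 0.59 (L6) and -0.23 (L8), and the other HN fetuses at 0.29 (L2), -0.35 (L3) and -0.96 (L10). Fetus L2 thus lay above LN fetuses L5 and L8, and L8 was the only LN fetus below the mean.

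The size of the difference depended on single fetuses. Without L9 the median difference of the members was 0.86, and the differences of CATHL1, CATHL5 and CATHL6 were 0.83, 0.26 and 0.49. Without L2 the median was 1.72. All members remained higher in LN in each of these settings. In proportion to its small difference CATHL5 depended most on single fetuses, with 0.75 without L8, 0.72 without L2, 0.29 without L6 and 0.27 without HN fetus L3.

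The members followed one another closely across fetuses. Over their 15 pairs the median Pearson correlation was 0.906 and the median Spearman correlation 0.786, over 8 arrays that share their processing and, within a group, a slide. With each group's mean taken out, so that diet no longer contributed, the median was 0.851. When the 2 fetuses farthest from the median were left out, in most pairs L9 and L1, it was 0.784, with a range from 0.161 to 0.967. CATHL1, CATHL2, CATHL3 and CATHL6 formed the tightest group, with correlations between 0.975 and 0.992. Probes of the same member correlated at 0.865 to 0.997. The members share a conserved region, and how far their probes bind each other's transcripts was not tested. In comparison, the correlation of a detected gene with the members, averaged over the 6, had a median of 0.037, and 39 of 10854 genes (0.359%) exceeded 0.8.

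Within the family, CATHL4 and CATHL5 departed from this common pattern in different ways. CATHL4 correlated with CATHL1, CATHL2, CATHL3 and CATHL6 at 0.840 to 0.908, and its main departure was in HN fetus L2, where it stood at -1.104 on the log2 scale from the mean of the other members, each gene being centred on its own mean. CATHL1, CATHL2, CATHL3 and CATHL6 reached LN levels in L2, CATHL1 and CATHL6 in L3 as well, whereas CATHL4 lay below every LN fetus in both. CATHL5 correlated with the other members at only 0.559 to 0.741. Centred in the same way, it stood at 1.39 from the others in L1, the fetus with the least of the family, and at -1.11 in L9, the fetus with the most. Without L9 and L10 the correlation of CATHL4 and CATHL5 was 0.161.

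The position of the genes was not used to choose them. In the RefSeq assembly ARS-UCD2.0 the family lies in a single cluster of 11 genes, in the order CAMP, CATHL4, CATHL1, CATHL3, CATHL2, CATHL6 and CATHL5, with 4 other genes interspersed for which no matched probe was used. The members with the smallest differences between the groups, CATHL6 and CATHL5, are neighbours at one end. CAMP and CATHL4, at the other end, had the largest, 1.45 and 1.78, and the 3 genes between them and CATHL6 ranged from 1.27 to 1.39. With 7 genes and 8 fetuses this order is a description.

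CAMP encodes a helical cathelicidin and lies outside the chosen members only by its name. Its log2 signals were 7.58, 8.10, 7.79 and 8.83 in LN and 5.67, 7.65, 7.34 and 5.83 in HN. Only L2 reached into the LN range, and CAMP correlated with the members at a mean of 0.860. The difference of 1.45 (standard error 0.49) was not past the threshold by limma (adjusted p = 0.760). NGP, a granule protein with a cathelin region, had 2 probes that disagreed, with a correlation of only 0.192. The brightest, with means of 12.09 in LN and 12.07 in HN, differed by 0.02 with overlapping groups. The dimmer, at only 4.67 and 4.30, differed by 0.37 (standard error 0.13) and was highest in L9 like the cathelicidins. It was without overlap, as were 2.59% of all genes, higher in LN.

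**Figure D3:**
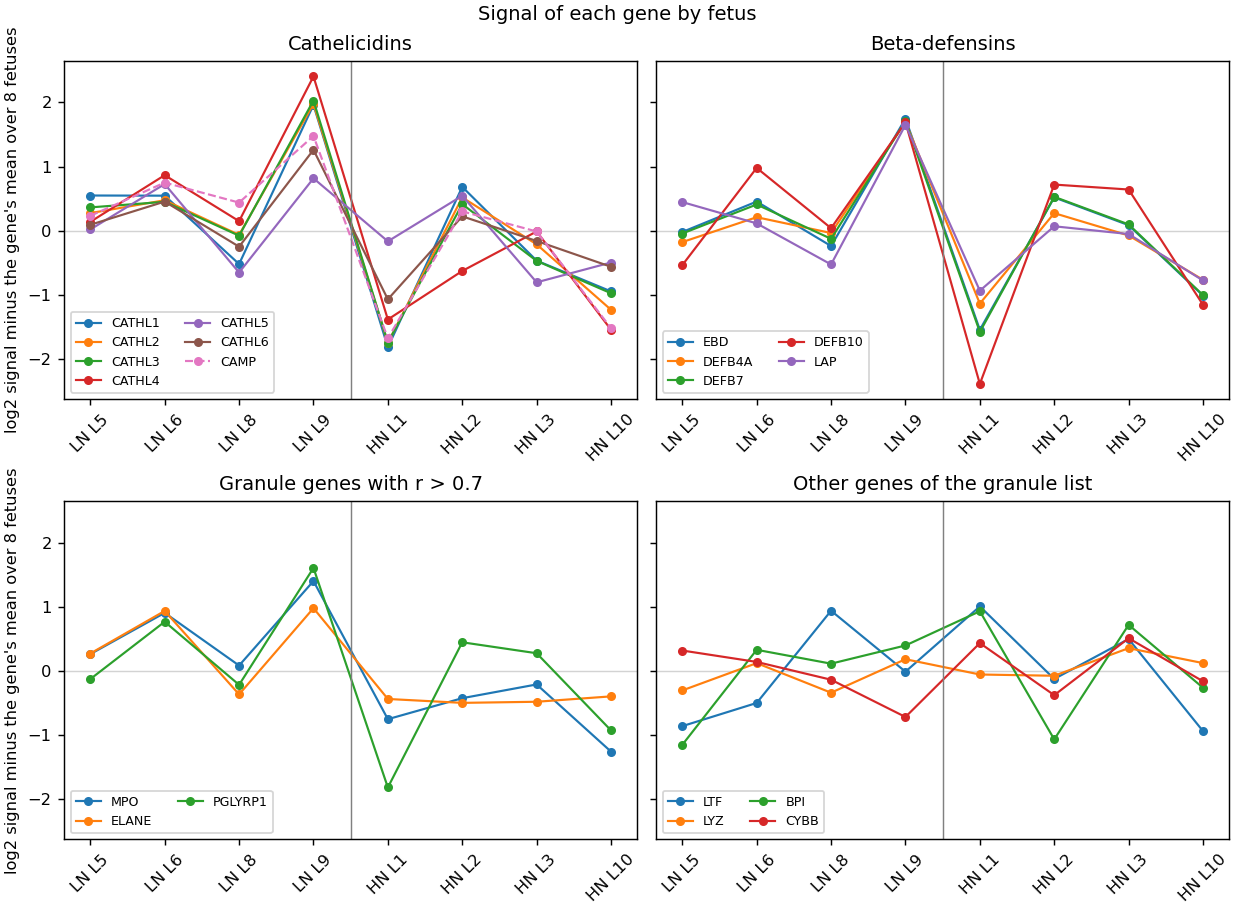
The log2 signal of each gene minus its mean over the 8 fetuses (vertical axis), by fetus, LN left and HN right of the grey line. The cathelicidins and the 5 beta-defensins shown (EBD, DEFB4A, DEFB7, DEFB10 and LAP) peak in L9 and are mostly lowest in L1, MPO, ELANE and PGLYRP1 also peak in L9, and LTF, LYZ, BPI and CYBB do not.

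Genes outside the family were then ranked by their mean correlation with the 6 members. Of the 10 most alike, 4 encode other antimicrobial peptides, all beta-defensins: EBD (enteric beta-defensin, 0.906), DEFB7 (0.899), DEFB4A (0.895) and LAP (lingual antimicrobial peptide, 0.885). LAP was dim, with log2 signals from 2.67 in L1 to 5.26 in L9. Beta-defensins are disulfide-bonded peptides that in cattle are stored in neutrophil granules or made by epithelia, and they are encoded apart from the cathelicidin cluster. EBD had log2 signals of 10.31, 10.78, 10.09 and 12.08 in LN and 8.78, 10.85, 10.41 and 9.32 in HN, so that L9 was again highest, L1 lowest, and L2 within the LN range. Its difference was 0.97 (standard error 0.55, adjusted p = 0.799). The genes of these beta-defensins are similar in sequence, and how far their probes bind each other's transcripts was not tested.

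The ranking also held GOLGA7B (0.907), ALOX15 (0.904), PHACTR3 (0.903), SUB1 (0.896) and PF4 (0.891). ALOX15, a lipoxygenase of eosinophils, differed by 1.098 (standard error 0.37), with an adjusted limma p of 0.760, and by 0.50 when the background was corrected by normexp, a model-based alternative to the scanner's subtraction. PF4, the platelet factor of megakaryocytes, gave 9.59, 10.41, 9.41 and 10.83 in LN and 8.42, 9.45, 9.25 and 9.07 in HN, a difference of 1.02 (standard error 0.35, adjusted p = 0.760). GOLGA7B, PHACTR3 and SUB1 differed by 0.14 to 0.39 (0.10 to 0.24 without L9). With normexp correction GOLGA7B was at 0.086 and PHACTR3 at 0.11, with 75th percentile scaling they were at 0.083 and 0.21, and for GOLGA7B the mean over its probes was lower in LN, by -0.62. With the group means taken out, the first 5 genes were ATP2B4 (0.913), EBD (0.891), DEFB7 (0.880), GOLGA7B (0.873) and DEFB4A (0.871), so that EBD, DEFB7 and DEFB4A stayed in front. ATP2B4, a calcium pump, correlated at 0.560 when the means were kept and differed by -0.11 between the groups, with a range from -0.25 to -0.0074 when a fetus was left out, -0.33 with 75th percentile scaling and -0.015 with normexp correction.

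**Figure D4:**
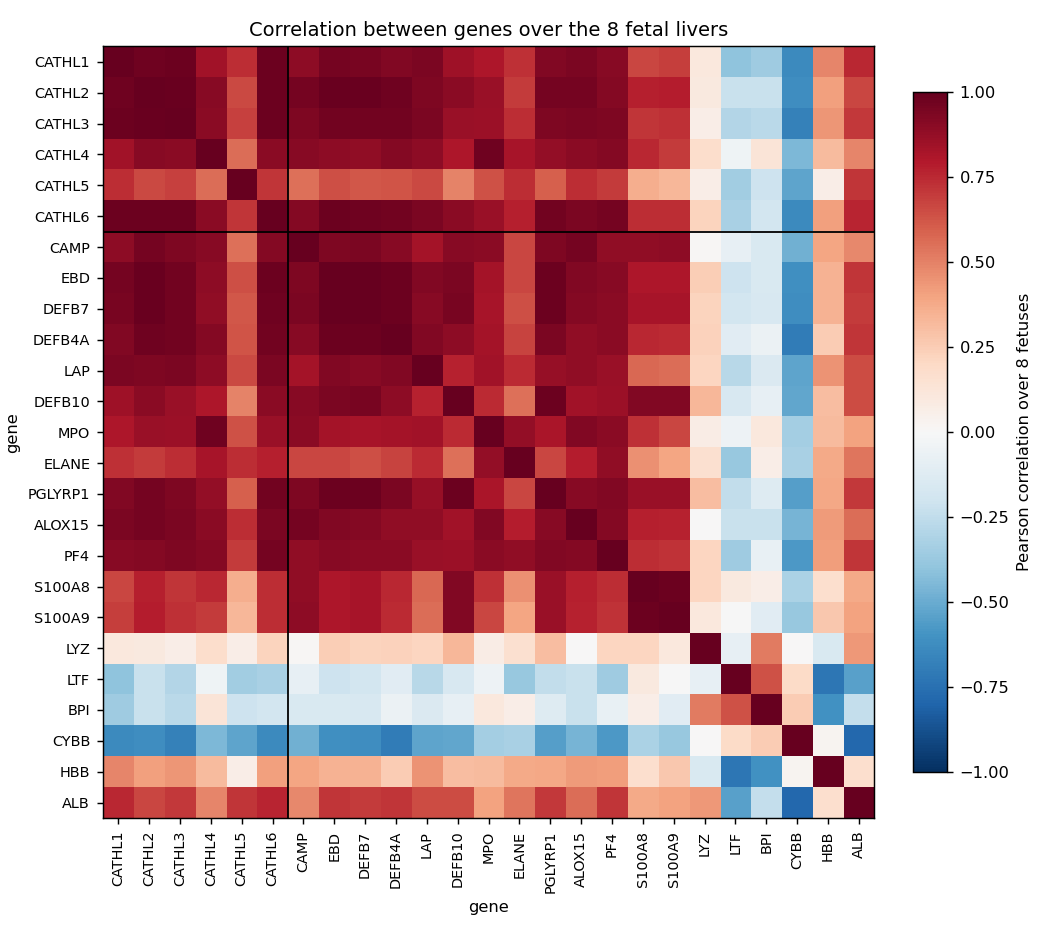
Pearson correlation over the 8 fetuses for each pair of genes (colour, from -1 in blue to 1 in red), the cathelicidins lying above and left of the black lines. The cathelicidins, CAMP, the 5 beta-defensins shown, MPO, ELANE, PGLYRP1, ALOX15 and PF4 form a red block in which CATHL5 is palest, and CYBB is blue against all of them.

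The neutrophil granule list held 37 genes besides the members, of which 25 were detected. Of these, 15 were higher and 10 lower in LN, with a median difference of 0.05, so the list as a whole lay close to the 0.0075 of all genes. An unadjusted limma p of at most 0.05 was reached by 3 genes higher in LN (over all genes, 3.30%) and by 0 lower (2.75%), and 0 passed an adjusted p of 0.05. They were CAMP, MPO and ELANE. MPO, the myeloperoxidase of primary granules, gave 8.48, 9.12, 8.30 and 9.62 in LN and 7.46, 7.79, 8.01 and 6.96 in HN. Its groups did not overlap, and it differed by 1.32 (standard error 0.33, adjusted p = 0.760). ELANE, the elastase that frees cathelicidin peptides from their precursors, gave 7.88, 8.55, 7.25 and 8.59 in LN and between 7.11 and 7.22 in all 4 HN fetuses. It too was without overlap, with a difference of 0.91 (standard error 0.28, adjusted p = 0.760). MPO and ELANE correlated with the members at means of 0.831 and 0.751.

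The mean correlation of the granule genes with the family ran from 0.877 down to -0.70, with genes at intermediate values. PGLYRP1, a peptidoglycan-binding protein of granules, had a mean correlation of 0.877 and a difference of 1.01 (standard error 0.57, adjusted p = 0.799). S100A8 and S100A9, the subunits of calprotectin, had correlations of 0.670 and 0.664 and differences of 0.89 and 0.81. Without L1, PGLYRP1, S100A8 and S100A9 were at 0.58, 0.54 and 0.42, and PGLYRP1 was 0.65 without L9 and also with normexp correction. In between lay HP (haptoglobin, 0.616), S100A12 (0.491) and CHI3L1 (0.425), named after their values were seen. LTF, the lactoferrin of secondary granules, gave 9.51, 9.88, 11.31 and 10.36 in LN and 11.38, 10.25, 10.87 and 9.44 in HN. It was highest in L1, where the cathelicidins were lowest, and had a mean correlation of -0.27 and a difference of -0.22, whose sign turned without L5 (0.03) or without L1 (0.08). LYZ (lysozyme), BPI (a lipopolysaccharide-binding protein) and CYBB (a subunit of the oxidase) had mean correlations of 0.12, -0.18 and -0.59. CD177, CRISP3 and SLPI were not detected, and LCN2, MMP8 and OLFM4 were among the 9 listed genes without a matched probe.

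Of 28 other antimicrobial peptide genes listed, 19 were detected, 10 of them higher and 9 lower in LN, with a median difference of 0.07. At the unadjusted p threshold of 0.05 there were 0 genes by limma, and 0 after adjustment. In this list 6 genes correlated with the members at over 0.8 (0.359% of all genes), namely EBD, DEFB7, DEFB4A, LAP, DEFB10 and PGLYRP1, all of them higher in LN by 0.84 to 1.09. They include 5 of the 9 beta-defensins detected. The other 4 did not follow the cathelicidins closely, with mean correlations of 0.39 for DEFB122, -0.21 for DEFB123, -0.40 for DEFB119 and -0.56 for DEFB124, and differences of 0.10, -0.19, -0.24 and -0.70. These differences depended on the processing: with normexp correction they were 0.058, 0.020, -0.011 and -0.11, and with 75th percentile scaling -0.011, -0.43, -0.48 and -0.91. Of these, DEFB119 and DEFB124 were highest in L10, DEFB123 in L1 and DEFB122 in L6. DEFB119, DEFB123 and DEFB124 were dim. In this order, their log2 signals ran from 2.92 to 3.49, from 2.97 to 3.64 and from 2.78 to 4.66. Whether their low correlations reflect the genes or signals near background was not tested. Among the 6 genes over 0.8, DEFB10 had the largest difference (standard error 0.75), and it was 0.47 without L1 and 0.71 without L9. Without L9, EBD, DEFB7, DEFB4A and LAP were at 0.55, 0.57, 0.43 and 0.44. EBD and DEFB7 were at 0.62 and 0.61 without L1, and LAP was 0.18 with normexp correction.

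**Figure D5:**
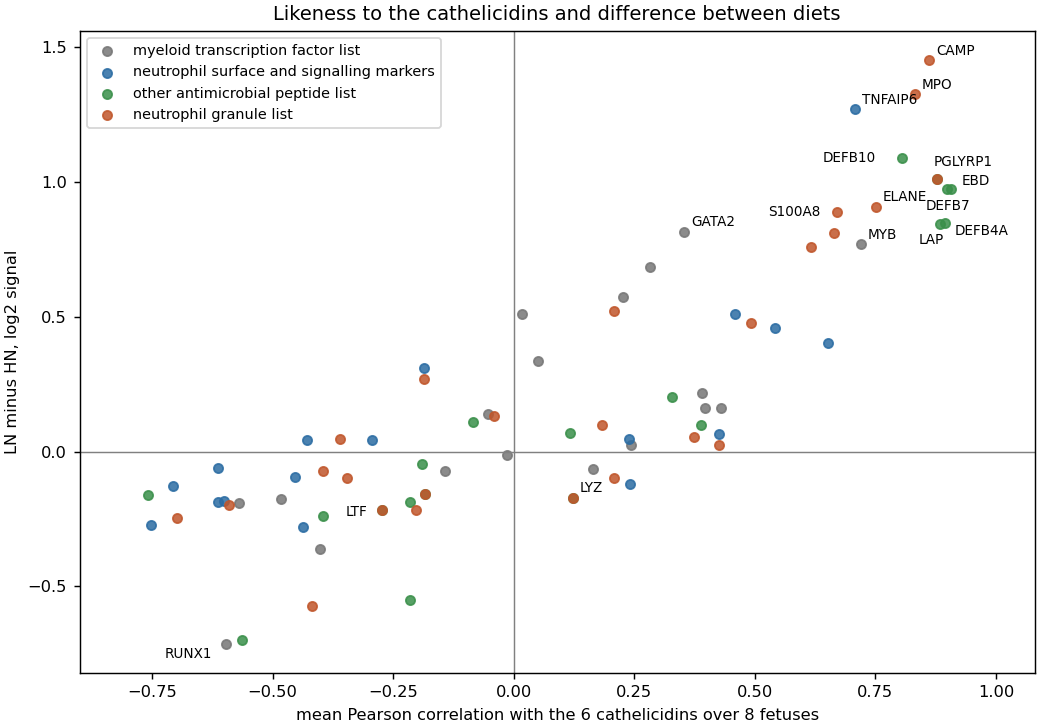
For each detected gene of 4 lists (colours), the mean correlation with the 6 cathelicidins over the 8 fetuses (horizontal axis) and the difference LN minus HN in log2 signal (vertical axis). Genes most like the cathelicidins lie at the upper right, and because the cathelicidins themselves were higher in LN the axes are not independent.

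Genes that control or accompany neutrophil formation were examined next. Of 19 myeloid transcription factors, 18 were detected, 11 higher and 7 lower in LN, with a median difference of 0.15, and CEBPE, a factor of late granulocyte maturation, was not detected. GATA2 and MYB, factors of blood progenitors, differed by 0.81 and 0.77, MYB with a mean correlation of 0.720 and GATA2 of 0.352. RUNX1 differed by -0.71 (standard error 0.23, adjusted p = 0.760). With normexp correction MYB was 0.21 and RUNX1 -0.13, and without L5 GATA2 was 0.41. Of 25 neutrophil surface and signalling genes, 17 were detected, with a median difference of 0.04. The largest differences were those of TNFAIP6 (1.27, standard error 0.89), the chemokine receptor CXCR1 (0.51) and ALOX5AP (0.46), and the defining markers CXCR2, ITGAM, ALOX5 and C5AR1 were not detected. TNFAIP6 was 0.57 without L1, CXCR1 was 0.27 without L9, 0.34 without L8 and 0.92 without L5, and ALOX5AP was 0.27 without L10. With normexp correction they were 0.18, 0.16 and 0.23, and CXCR1 was 0.29 with 75th percentile scaling. A list of 10 genes that process cathelicidins or inhibit that step had 4 detected, with a median of 0.09 and ELANE the largest. Of 7 receptors described for the peptides, only 1 was detected.

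Signals known to induce cathelicidins or to mark an acute phase response showed little common difference. Of 17 inducers, 11 were detected, 5 higher and 6 lower in LN, with a median difference of -0.02. VDR, the vitamin D receptor, differed by 0.31 and HIF1A, the hypoxia factor, by 0.25, both without overlap (2.59% of all genes, higher in LN) and each with an unadjusted limma p of at most 0.05, which 3.30% of all genes reached in that direction. Neither passed the adjustment, VDR was 0.12 with normexp correction and 0.15 with 75th percentile scaling, and HIF1A was singled out after its values were seen. CXCL8, a neutrophil chemokine, differed by 0.39, but by 0.026 without L6, and between 0.25 and 0.66 without any other single LN fetus. It was 0.26 without L1, 0.21 with 75th percentile scaling and 0.23 with normexp correction. IL6, IL17A, IL22, CSF3 and CSF2 were not detected. Of 14 acute phase proteins, 13 were detected, with a median of -0.06. SAA3 differed by 1.19 (standard error 1.24), but by -0.04 without HN fetus L3, 0.59 without L6, 2.03 without L10 and 0.55 with normexp correction. CP, ceruloplasmin, differed by -0.94, by -0.50 without L6 and by -0.57 without L10.

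Markers of other blood cells were compared in the same way, and 0 passed the adjusted threshold by limma. Of 20 erythroid markers, 12 were detected, 10 higher and 2 lower in LN, with a median difference of 1.18 and the largest for HBM (1.83), TRIM10 (1.72) and HBB (1.71). Without L5 these were 0.68, 0.85 and 0.79, HBB was 0.93 without L1, and TRIM10 was 0.46 with normexp background correction. The mean level of the list ran from 6.74 to 9.63 in LN and from 6.04 to 7.46 in HN, highest in L5 and lowest in L1. It correlated with the family mean at 0.393 over the 8 fetuses, but at 0.094 with the group means taken out. SLC4A1, EPB42, KLF1, RHAG and HBE1 were not detected. Of 14 eosinophil, basophil and mast cell markers, 7 had a probe and were detected, 6 of them higher in LN. In the main processing the mean level of the list was 5.77 to 6.14 in LN and 5.07 to 5.63 in HN, without overlap. Of all single genes, 2.59% were without overlap and higher in LN, but no such share was taken for means of lists. The largest of these differences was that of RNASE2, an eosinophil ribonuclease, at 1.13 (standard error 0.31, adjusted p = 0.760), but it was 0.27 with normexp correction, and CPA3, a mast cell protease, went from 0.81 to 0.17 and was 0.52 without L5. EPX and PRG2 had no matched probe.

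Of 14 lymphocyte markers, 8 were detected and 8 were lower in LN, with a median of -0.18. The list's mean level ran from 9.79 to 10.06 in LN and from 9.88 to 10.25 in HN. Of 15 monocyte and macrophage markers, 11 were detected, 9 of them lower in LN, with a median of -0.09. Their mean level ran from 12.33 to 12.80 in LN and from 12.11 to 13.05 in HN. Of 8 megakaryocyte markers, 5 were detected with a median of 0.10, PF4 alone exceeding 2-fold. The 11 hepatocyte markers had a median of 0.0066 and a list mean between 17.21 and 17.49 in all fetuses. At that brightness quantile normalization draws the arrays together. Of 8 stem and progenitor cell markers, 6 were detected, with a median of 0.17. Over the 8 fetuses the mean level of each list correlated with the family mean at 0.526 for eosinophils, basophils and mast cells, -0.68 for lymphocytes, -0.56 for monocytes and macrophages, 0.611 for megakaryocytes, 0.639 for stem and progenitor cells, 0.189 for hepatocytes and 0.091 for the 10 endothelial and stellate markers, whose median difference was -0.02. With the group means taken out the correlations were, in the same order, -0.011, -0.41, -0.61, 0.43, 0.53, 0.39 and 0.14. Without L9 and L1 they were 0.62, -0.62, -0.33, -0.12, 0.56, 0.18 and 0.34. The part of these cell types in the difference of the cathelicidins was not tested.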

How the data were processed

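RNA from the livers of 8 fetuses (4 LN, 4 HN) was hybridised to 1-colour Agilent bovine arrays. The authors deposited scanner output in which each intensity has had its background subtracted and spatial trend removed by Agilent Feature Extraction 11.0.1.1 per the labels, with flags (a score of 0 or 1) for spots well above background or outlying. The authors also deposited log2 values of 31068 probes, quantile normalized per the methods.

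From the intensities, control and outlier spots were dropped, repeat spots averaged and log2 signals were quantile normalized over 43637 probes. On 31061 shared probes the authors' log2 values differed from these by a median of 0.000104 when rebuilt from the same probes. Detection required the well-above-background flag on 4 or more arrays, and a gene was represented by its brightest detected probe. Accessions were matched to the RefSeq gene table (ARS-UCD2.0). The array was designed on another build, so no coordinates are given.

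The groups were compared by limma (version 3.58.1, R version 4.3.3; lmFit, eBayes, 2-sided, Benjamini-Hochberg adjustment over all 33439 detected probes). The number of arrays limits the precision, and p-values measure the spread between these samples. Functions were tested on simulated data. The members and gene lists were chosen with earlier results of these data known. Named genes are the 6 members, genes drawn from the 3 largest differences of each list or its defining markers, and the 10 genes most correlated with the members, or 5 with group means taken out. Alternatives were normexp background correction, 75th percentile scaling, filters, probe choice, the authors' values, array position as a block, moderation and leaving out each fetus. Protein and promoter sequences were not used here. Some genes meeting this rule are counted but not reported here.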

Additional observations from a re-analysis of the deposited data

Results flagged for a closer look

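PHACTR3, a gene whose signal followed the cathelicidins, had an HN fetus far from the others: its log2 signal was 5.23 in L2, with the nearest HN fetus at 4.76. Of 118 groups of 4 fetuses examined in this way, 1 stood out, where chance gives about 5%.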

How the results depend on the processing

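The median difference of the cathelicidins stayed between 1.22 and 1.31 under the other settings tried, and between 0.86 and 1.72 when a fetus was left out (L9 and L2). Their median correlation stayed between 0.899 and 0.912, and between 0.790 and 0.960 with a fetus left out. The number of members without overlap was 1 to 3 (3 without L2). Probes at an unadjusted limma p of at most 0.05 numbered 1672 to 2963, and 1343 (without HN fetus L10) to 2638 (without HN fetus L3) with a fetus left out, and 0 to 1 had an adjusted p of at most 0.05 (1 without L6). The medians of the lists were less settled. With 75th percentile scaling the granule list was at -0.044, the other antimicrobial peptides at -0.011 and the transcription factors at 0.019. The antimicrobial list was at -0.048 with no filter on dim probes. With a fetus left out it ran from -0.0035 to 0.10, the granule list from 0.02 to 0.18 and the transcription factors from 0.07 to 0.23. Under normexp correction with its offset of 50 the differences of many dim genes were smaller, among them RNASE2 (0.27), CPA3 (0.17), RUNX1 (-0.13) and VDR (0.12), and DEFB123 turned to 0.020, as DEFB122 did to -0.011 with 75th percentile scaling, while the 6 cathelicidins stayed between 0.43 and 1.79 under all settings other than leaving out a fetus. Averaging a gene's probes gave -0.62 for GOLGA7B and -0.028 for ALB. With a fetus left out, LTF ran from -0.57 to 0.080, BPI from -0.54 to 0.20, CYBB from -0.36 to 0.0057, DEFB122 from -0.014 to 0.19, SAA3 from -0.039 to 2.03, ALB from -0.0075 to 0.019 and NGP from -0.035 to 0.14. The cause of these shifts was not tested. The groups share no fetus numbers, so no pairing by number could be made. With array position on the slide as a block, which sets 1 LN beside 1 HN array, limma gave 1672 probes at the unadjusted threshold and 0 after adjustment. With 4 fetuses per group and 1 slide per diet, the arrays limit the precision.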
